A study of Mus musculus with 24 samples.

Results

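Mouse embryonic stem cells (mESC) that carry a Huntington's disease knock-in allele labelled Q111 were compared with mESC labelled wild type, across every gene detected by RNA sequencing. The comparison used 4 of the 24 libraries of the series, chosen by genotype and cell type: 2 Q111 and 2 wild-type libraries. The series holds 6 genotypes (wild type, huntingtin knockout, and knock-in lines labelled Q20, Q50, Q92 and Q111), each sampled as mESC and as neural progenitor cells (NPC), with 2 biological samples per genotype and cell type. The 8 other mESC libraries helped to decide which genes were tested and to estimate the spread and the effect of replicate number. They also set the Q111 values beside those of the other lines.

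The Q111 cells were heterozygous: 1 copy of the mouse huntingtin gene (Htt, or Hdh) carried a CAG tract of 111 repeats and the other copy was normal. The growth protocol describes such lines with 20, 50, 89 and 111 repeats, while the sample titles call the line of 89 repeats Q92. All mESC were described as grown with serum and leukaemia inhibitory factor (LIF) on irradiated fibroblast feeder cells. The derivation of the wild-type and knockout lines is not described separately, and nothing says that the wild-type line is the parent of the Q111 line. The labels also do not say how many independent clones stand behind a genotype, so a difference between Q111 and wild type here is a difference between 2 cell lines, in which the repeat and anything else that separates the lines cannot be told apart. The p-values measure the spread between samples of these lines only.

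Huntingtin is a large scaffold protein with roles in vesicle transport, autophagy and transcription. Its first exon encodes a run of glutamines, and an expanded run causes Huntington's disease in people. Embryonic stem cells are kept in an undifferentiated state by a small circuit of transcription factors, and LIF maintains the part of that circuit called naive pluripotency. Feeder fibroblasts supply extracellular matrix and growth factors, and some of them are lysed together with the stem cells.

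The stretch of reference Htt that the knock-in allele lengthens is shown here, with the glutamine codons in capitals. It is the start of the coding sequence in exon 1, at chr5:34761907-34762002 on the plus strand of GRCm38. The mouse reference holds 7 glutamine codons at this place, of which 6 are CAG and 1 is CAA. The repeat itself was not read out in these files, which give only the level of each gene.

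Htt reference exon 1: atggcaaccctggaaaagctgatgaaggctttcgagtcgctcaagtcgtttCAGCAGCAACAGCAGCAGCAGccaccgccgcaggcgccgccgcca

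Htt RNA (chromosome 5, 34761740 to 34912534, 67 exons) was measured at 124.2 and 113.2 CPM (reads of a gene scaled to library size) in the 2 wild-type libraries and at 99.35 and 91.46 CPM in the 2 Q111 libraries. Both Q111 libraries were below both wild-type libraries, but the difference did not pass the test (log2 change -0.31, SE 0.22, adjusted p = 0.406, limma). The change is on the log2(CPM + 1) scale, as are all others below. The knockout libraries stood at 138.6 and 68.54 CPM for the gene as a whole, so this gene level did not separate the knockout label from the wild type.

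Recovered read totals were 61807627 and 59036760 for the wild-type libraries and 64757550 and 77330071 for the Q111 libraries, within the range of 58546211 to 81502284 over the 12 mESC libraries. The 10 most abundant genes took between 4.97% and 6.21% of the reads of a library. The mESC label was checked against pluripotency genes. Pou5f1 (Oct4), the core pluripotency factor, stood at 420.8 and 880 CPM in wild type and at 279.7 and 455.2 CPM in Q111. Nanog, another core factor, was at 284.4 and 432.8 CPM in wild type and at 234.2 and 439.2 CPM in Q111. Zfp42 (Rex1), a marker of undifferentiated cells, was at 310.6 and 465 CPM in wild type and at 337.5 and 519.8 CPM in Q111. None of these 3 genes passed the test, and all 3 were abundant in all 4 libraries. Sox2 was not analysed here.

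Of 13916 genes with enough signal to test, 1032 (7.42%) differed between Q111 and wild-type mESC at an adjusted p under 0.05 (limma with the replicate number as a block). The split was 604 genes higher in Q111 (4.34%) and 428 lower (3.08%). The median change was 0.99 among the genes that rose and -0.96 among those that fell, and 487 of the called genes differed at least 2-fold. All 1032 called genes changed the same way in both replicate pairs, which a call itself largely requires, so this is no separate support. In 924 of them the 2 groups did not overlap. That count stands against 5210 of all tested genes (37.4%) whose groups did not overlap. The replicate number was kept in the model because same-numbered mESC libraries of different genotypes deviated together.

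That block and the borrowed libraries carry much of the count. Without the block 44 genes were called, 37 higher and 7 lower, and with the 4 Q111 and wild-type libraries alone none was called by limma, although 2625 genes had an unadjusted p under 0.05. edgeR's quasi-likelihood test with the block called 959 genes, and edgeR without it 17. Leaving out 1 library left 234 calls without wild-type replicate 1, 108 without wild-type replicate 2, 83 without Q111 replicate 1 and 133 without Q111 replicate 2.

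**Figure D1:**
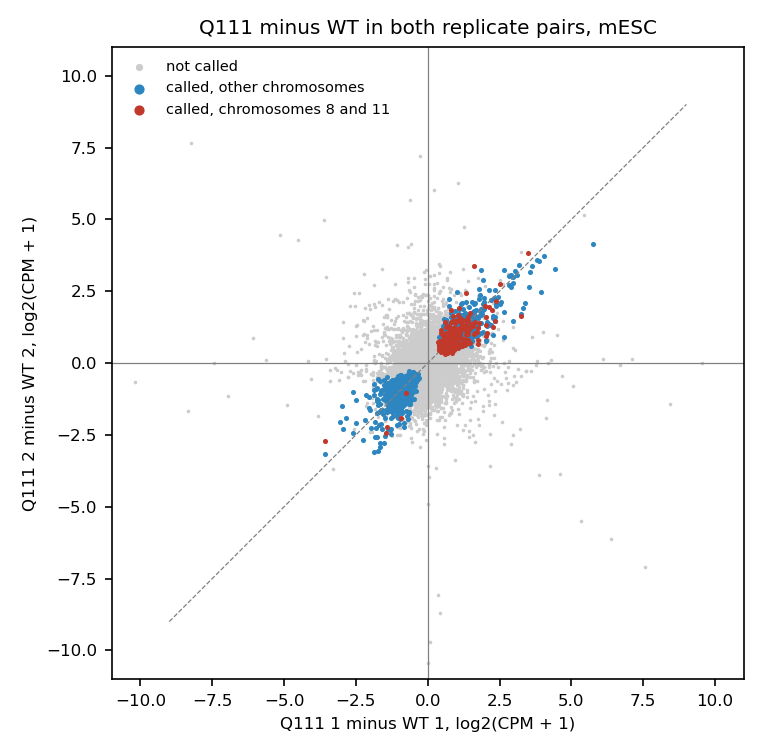
Each point is 1 gene. The horizontal axis gives the log2 difference Q111 minus wild type in replicate pair 1 and the vertical axis the same in pair 2, on the log2(CPM + 1) scale. Grey points were not called, blue points were called and lie on other chromosomes, red points were called and lie on chromosome 8 or 11, and the dashed line marks equal change. All 1032 called genes lie in the quadrants where both pairs have the same sign, which a call itself largely requires.

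Chromosomes 8 and 11 stood out. These 2 chromosomes hold 13.6% of the tested genes and 256 of the 604 genes that rose in Q111 (42.4%), against 5 of the 428 that fell. On chromosome 8, 112 of 746 tested genes rose and 2 fell (15.3% called), and on chromosome 11, 144 of 1152 rose and 3 fell (12.8% called). Elsewhere on the autosomes and the X, 342 of 11991 genes rose and 423 fell (6.38% called). Gains of chromosome 8 or 11 are known to recur in cultured mouse embryonic stem cells, as background. DNA copy number was not measured in these files.

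The shift was spread over the chromosomes and was modest for each gene. Among genes of at least 5 CPM in either group, 1056 of 1475 genes on chromosomes 8 and 11 (71.6%) were higher in Q111 in both replicate pairs, against 23.2% of 9266 genes elsewhere. The median change was 0.44 on chromosomes 8 and 11 together and -0.10 elsewhere. In consecutive windows of 20 Mb the median lay between 0.38 and 0.46 along chromosome 8 and between 0.40 and 0.48 along chromosome 11, with 7 windows on each. Over all tested genes the medians of the other autosomes ran from -0.166 on chromosome 1 to -0.024 on chromosome 5, that of the X was 0.129, and those of chromosomes 8 and 11 were both 0.41.

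A relative level was computed for each library as the median, over a chromosome's genes, of the log2 level less that gene's mean over the 12 libraries, minus the same median over all other chromosomes. For chromosome 8 it was -0.385 and -0.304 in the wild-type libraries and 0.104 and 0.136 in the Q111 libraries. The other knock-in libraries lay between 0.063 and 0.154, with the knockout at -0.078 and -0.059, so wild type was the lowest of the 6 genotypes. For chromosome 11 it was -0.273 and -0.136 in wild type and 0.241 and 0.384 in Q111. Here Q20 (0.253 and 0.359) was level with Q111, whereas Q50, Q92 and knockout lay between -0.28 and -0.046, beside wild type. Expressed as a ratio, Q111 stood at 1.38 times wild type on chromosome 8 and 1.43 times on chromosome 11. When each chromosome was centred on its own median in every library, 675 genes were called, of which 599 were among the 1032.

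**Figure D2:**
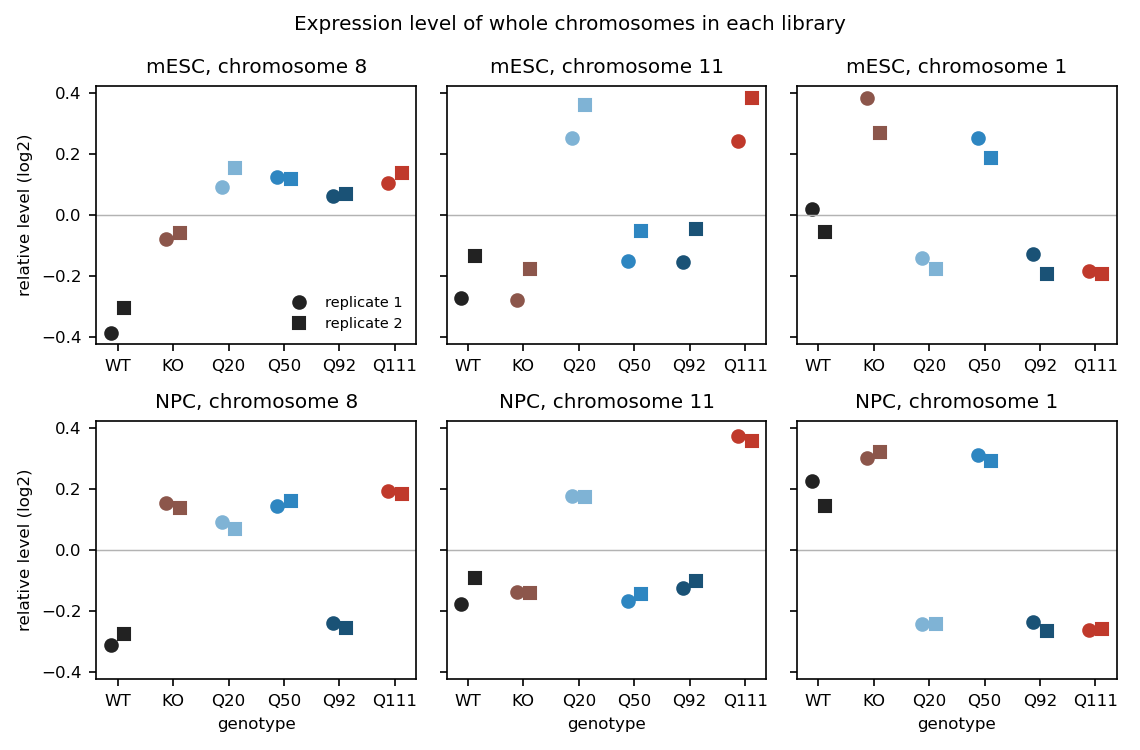
Relative level (log2) of the genes of chromosomes 8, 11 and 1 in each library, by genotype, for mESC in the upper row and NPC in the lower row. Circles are replicate 1 and squares replicate 2. On chromosome 8 the 2 wild-type mESC libraries, at -0.385 and -0.304, lie below those of every other genotype, and on chromosome 11 the Q111 and Q20 libraries lie above the others.

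The genes with the largest changes were mostly elsewhere. Of the 10 largest rises and the 10 largest falls, 1 rise (Spcs3) and 1 fall (Psme2b) lay on these 2 chromosomes. The 5 genes of chromosomes 8 and 11 that fell in Q111 were Kifc3 and Nkx6-3 on chromosome 8 and Atp2a3, Krt42 and Psme2b on chromosome 11. Apart from Psme2b they fall outside the rule for named genes and are given to account for the count.

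Matricellular and contractile genes, known as targets of serum response factor with actin and of YAP, were higher in Q111. Of 21 tested, 12 rose (57.1%), none fell and 9 were not called, with a median change of 1.50 against -0.02 over all genes tested. None of the 21 lies on chromosome 8 or 11. The CArG box, the element bound by serum response factor, was searched for on both strands of the 250 bases before the RefSeq start. It occurs in 482 of 32851 such promoters (1.47%), in 3 of the 15 list members that matched a promoter entry, and in none of the 8 called members that did. Thbs1 (chromosome 2, 118111876 to 118127133) encodes thrombospondin 1, a matrix glycoprotein that affects cell adhesion. It was at 9.559 and 13.7 CPM in wild type and at 144.8 and 173.8 CPM in Q111. The Q111 libraries were far above the wild-type libraries with no overlap (log2 change 3.68, SE 0.25, adjusted p = 0.00124, limma).

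Acta2 (chromosome 19, 34241090 to 34255590), the smooth muscle actin of contractile cells, was at 2.126 and 3.027 CPM in wild type and at 65.88 and 37.73 CPM in Q111. Both Q111 libraries were above both wild-type libraries (log2 change 3.84, SE 0.39, adjusted p = 0.00415, limma). Tagln, which encodes the actin-binding protein transgelin, was at 3.065 and 3.47 CPM in wild type and at 61.52 and 24.12 CPM in Q111. The groups were apart although the Q111 pair differed widely (log2 change 3.22, SE 0.65, adjusted p = 0.0282, limma), and 40.9% of the 75-base words of its transcripts also occur in other genes.

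The secreted matrix proteins that serve as YAP readouts were also higher. Cyr61 was at 3.857 and 9.702 CPM in wild type and at 47.52 and 39.85 CPM in Q111 (log2 change 2.63, adjusted p = 0.0139, limma). Ctgf was at 13.53 and 25.46 CPM in wild type and at 113.8 and 71.19 CPM in Q111 (adjusted p = 0.0259, limma). In both genes each Q111 library was above each wild-type library. Ankrd1, Tpm1, Tpm2, Cnn1, Anxa1 and Cav1 were also among the 12. Flna, which encodes the abundant actin cross-linker filamin A, was at 956.6 and 1065 CPM in wild type and at 1018 and 906.8 CPM in Q111, and these libraries overlapped.

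Markers of the feeder fibroblasts moved with this group, and Acta2 and Tagln are on both lists. Of 20 feeder markers tested, 9 rose, none fell and 11 were not called (45% called against 7.42% of all genes, median 0.94). Col1a2 (chromosome 6, 4504814 to 4541544), a chain of type I collagen, was at 0.8076 and 1.947 CPM in wild type and at 21.24 and 29.28 CPM in Q111. That is a separation with no overlap (log2 change 3.49, SE 0.23, adjusted p = 0.00124, limma). Col5a2 (chromosome 1, 45374321 to 45503282), a chain of type V collagen, was at 2.868 and 3.258 CPM in wild type and at 29.05 and 33.28 CPM in Q111. Its libraries also lay far apart (log2 change 2.98, SE 0.21, adjusted p = 0.00124, limma). Col1a1, Col6a1, Postn, Lox and Bgn were the remaining called markers.

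Defining fibroblast genes such as Dcn and Postn were low in these 4 libraries. Dcn, which encodes the matrix proteoglycan decorin, was at 0.0494 and 0.124 CPM in wild type and at 0.503 and 1.01 CPM in Q111, and was not called. Postn, a matrix protein of fibroblasts, was at 0.0494 and 0.106 CPM in wild type and at 0.991 and 1.90 CPM in Q111 (log2 change 1.16, adjusted p = 0.0145, limma). Thy1, Mmp2, Pdgfrb, Fbn1, Twist1, Ogn, Prrx1, S100a4, Col3a1 and Fn1 did not pass the test. Summed over the marker list without the abundant Fn1, the level was 81.2 and 69.4 CPM in wild type, 278 and 220 CPM in Q111, 89.4 and 65.7 CPM in the knockout, and between 201 and 406 CPM in the other knock-in libraries. With Acta2 and Tagln also removed it was 76 and 62.9 CPM in wild type, 151 and 158 CPM in Q111, and between 147 and 195 CPM in the other knock-ins. The part of feeder cells in these rises was not tested. As in all results on mixed cultures here, fewer cells of a type and less RNA per cell cannot be told apart.

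Guanylate-binding proteins, interferon-inducible GTPases that act against intracellular pathogens, were among the largest rises. This group was put together after the values were seen. The 30 genes tested also include antigen processing and class I genes. Of these 30, 13 rose, none fell and 17 were not called (43.3% called against 7.42% of all genes, median 1.09). Gbp2b (chromosome 3, 142594847 to 142619179) was at 4.961 and 1.186 CPM in wild type and at 97.9 and 27.95 CPM in Q111. In each replicate pair Q111 was far higher, and replicate 1 was the higher in both genotypes (log2 change 3.89, SE 0.31, adjusted p = 0.00169, limma). Its neighbour Gbp2 (142620602 to 142638008) was at 5.62 and 2.124 CPM in wild type and at 94.68 and 35.95 CPM in Q111, again without overlap (log2 change 3.71, SE 0.31, adjusted p = 0.00224, limma).

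Interferon-responsive genes often carry a paired GAAA element near their start, the interferon-stimulated response element. A search for GAAANNGAAA on both strands of the 250 bases before the RefSeq start was made because Gbp2b, Gbp2 and Gbp3 lie side by side and rose together. The match is printed in capitals, as GAAANNGAAA or as its reverse complement TTTCNNTTTC, in the 250 bases before Gbp2b (chr3:142594597-142594846, plus strand, GRCm38.p6, RefSeq) and in 30-base windows of 4 other called genes. The windows are chr3:142620594-142620623 (plus) for Gbp2, chr3:142559995-142560024 (plus) for Gbp3, chr2:122147538-122147567 (plus) for B2m and chr11:48871431-48871460 (minus) for Irgm1.

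Gbp2b: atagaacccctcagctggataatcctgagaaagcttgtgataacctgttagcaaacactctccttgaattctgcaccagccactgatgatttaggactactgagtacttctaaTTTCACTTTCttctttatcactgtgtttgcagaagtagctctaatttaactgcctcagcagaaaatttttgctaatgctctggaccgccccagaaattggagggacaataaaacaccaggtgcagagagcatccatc
Gbp2: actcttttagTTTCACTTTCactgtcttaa
Gbp3: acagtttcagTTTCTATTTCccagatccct
B2m: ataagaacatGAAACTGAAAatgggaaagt
Irgm1: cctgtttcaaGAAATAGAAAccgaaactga

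Gbp2b and Gbp2 hold the same 10 letters. The motif occurs in 978 of the 32851 promoters of this length in the reference table (2.98%). Of the 30 tested genes of the group, 25 matched a promoter entry and 11 of these hold the motif. Among the 13 that rose, 10 matched and 5 hold it, which are the 5 printed. A match describes the letters only.

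The rest of the group was uneven. Gbp3 was at 1.796 and 0.584 CPM in wild type and at 23.23 and 12.32 CPM in Q111 (log2 change 3.09, adjusted p = 0.00124, limma). Psmb8, an inducible subunit of the immunoproteasome, was at 1.20 and 0.212 CPM in wild type and at 21.78 and 4.14 CPM in Q111 (log2 change 2.73, adjusted p = 0.0128, limma). B2m, the light chain of class I molecules, was at 13.88 and 4.32 CPM in wild type and at 32.48 and 21.3 CPM in Q111 (log2 change 1.62, adjusted p = 0.018, limma). All 3 had both Q111 libraries above both wild-type libraries. Gbp4, Psmb10, Psme2, Tap2, Nlrc5, H2-K1, Irgm1 and Ifi35 were the other called members, and Psmb10, Nlrc5, Irgm1 and Ifi35 lie on chromosome 8 or 11. Without the 6 members on those chromosomes the median of the group was 0.80.

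Several classic genes of the type I interferon response were not called. Irf7, the interferon-induced regulator, was at 1.005 and 0.7082 CPM in wild type and at 0.6401 and 0.8197 CPM in Q111. Ifit3 and Mx1 were too low to test. Isg15, a ubiquitin-like protein of the same response, was at 1.402 and 0.3202 CPM in Q111, against 0.04944 and 0.08852 CPM in wild type, and was not called (adjusted p = 0.113, limma). Irf1, which drives guanylate-binding protein genes downstream of interferon gamma, was at 121.3 and 35.28 CPM in wild type and at 223.8 and 102 CPM in Q111. Its groups overlapped and it did not pass the test (log2 change 1.19, adjusted p = 0.0585, limma).

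A further set of rises came from genes that are active in germ cells and early embryos and are silenced by DNA methylation elsewhere. Of 25 such genes tested, 6 rose, none fell and 19 were not called (24% called against 7.42% of all genes, median 0.39). Dppa3 and Nxf3, which are not on this list, are also expressed in the germ line. Dppa3 (Stella; chromosome 6, 122626410 to 122630272), which protects methylation in the early embryo and counts here among the naive pluripotency genes, was at 2.587 and 2.372 CPM in wild type and at 41.68 and 29.22 CPM in Q111. The gap between the groups was far wider than the spread within either (log2 change 3.37, SE 0.27, adjusted p = 0.00169, limma). Nxf3 (chromosome X, 136072099 to 136085255), a relative of the main mRNA export factor, was at 3.263 and 2.514 CPM in wild type and at 37.28 and 36.84 CPM in Q111. The 2 Q111 libraries were almost equal (log2 change 3.30, SE 0.19, adjusted p = 0.000756, limma).

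Rhox5, an X-linked homeobox gene of germ-line tissue, was at 40.03 and 31.46 CPM in wild type and at 115 and 95.14 CPM in Q111. Again the libraries of the 2 groups did not overlap (log2 change 1.53, SE 0.14, adjusted p = 0.00308, limma). Tex101, which encodes a germ cell surface protein, and Tdrkh, a Tudor protein of the piRNA pathway, also rose, with log2 changes of 1.34 and 1.23. The other 3 called members, Xlr3a, Xlr3b and Xlr4a, belong to the Xlr cluster of the X chromosome.

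All 9 tested members of the Xlr cluster, a set collected after its values were seen, rose in Q111 (median 1.88). These genes encode nuclear proteins related to the synaptonemal complex protein Sycp3. Xlr5b (chromosome X, 73148796 to 73158872) was at 4.812 and 2.815 CPM in wild type and at 40.69 and 30.47 CPM in Q111, far apart and without overlap (log2 change 2.94, SE 0.19, adjusted p = 0.00124, limma). Xlr5c rose by 2.98 and Xlr5a by 2.77 on the log2 scale. The copies share most of their sequence: 80.4% of the 75-base words of Xlr5a, 85.3% of Xlr5b and 76.6% of Xlr5c occur in other genes, so reads could be split among them in counting. Their sum avoids that uncertainty. Xlr5a, Xlr5b and Xlr5c together were at 19.6 and 11.9 CPM in wild type and at 163 and 108 CPM in Q111. The X chromosome as a whole had 64 rises and 12 falls among 519 tested genes (14.6%), and 54 rises and 12 falls among 509 genes without the Xlr genes.

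Spcs3 and H2afj rose from wild-type values that were low beside the other lines as well. Spcs3 (chromosome 8, 54520433 to 54529998), a subunit of the signal peptidase that trims secreted proteins, was at 24.31 and 16.34 CPM in wild type and at 285.5 and 245.8 CPM in Q111 (log2 change 3.67, SE 0.15, adjusted p = 0.000242, limma). It was at 196.3 and 204.3 CPM in the knockout and between 186.1 and 274.3 CPM in the other knock-ins, so the wild-type libraries were low against all 10 others. H2afj, a histone H2A variant, was listed at 0 in both wild-type libraries and at 52.35 and 16.77 CPM in Q111 (adjusted p = 0.0339, limma). It was also listed at 0 in knockout replicate 1 and stood at 10.5 CPM in knockout replicate 2. H2afj overlaps a gene on the opposite strand, and reads of the 2 cannot be told apart where strand was not used in counting.

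**Figure D3:**
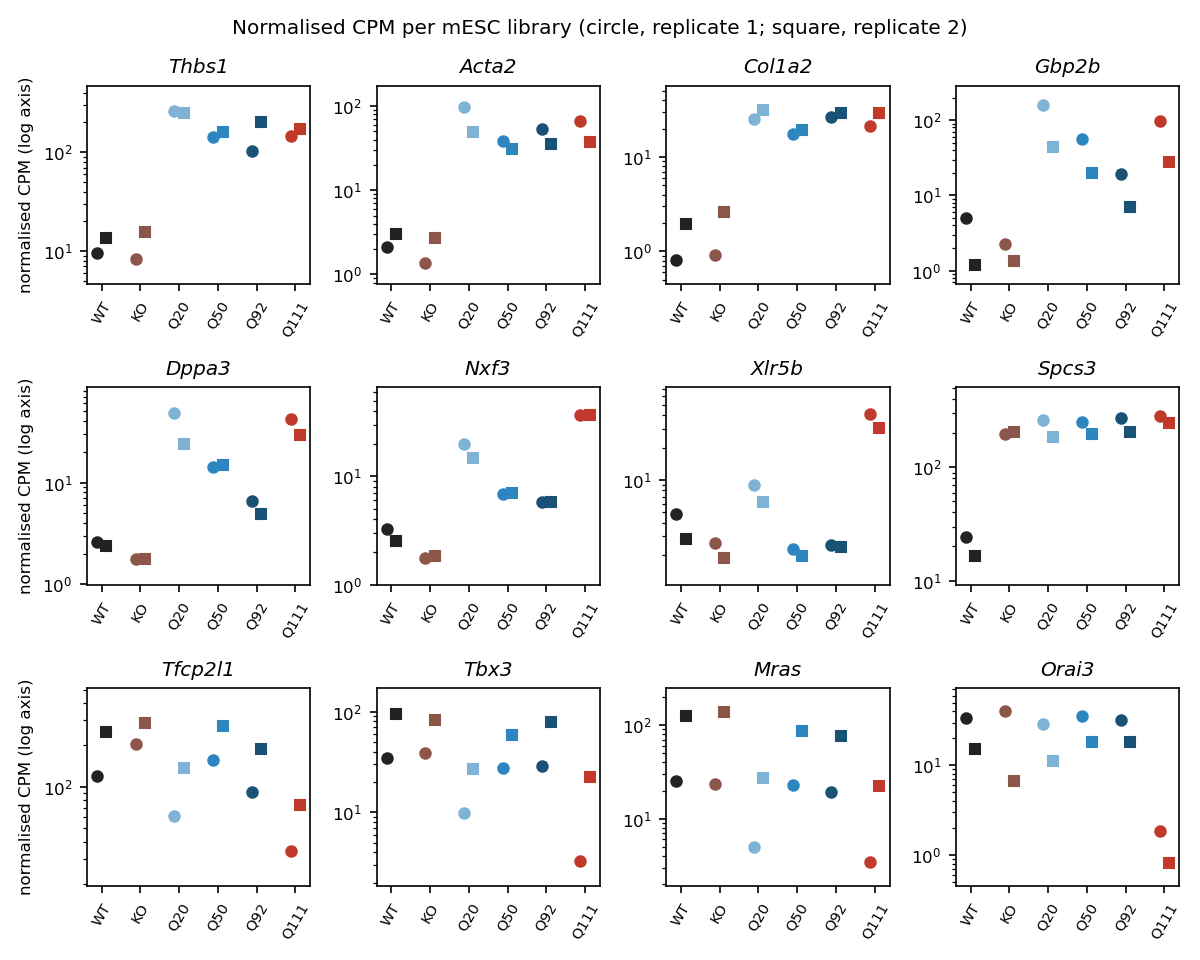
Level (CPM, log axis) of 12 genes named in the text, with 1 panel per gene and the 12 mESC libraries grouped by genotype. Circles are replicate 1 and squares replicate 2. Thbs1, Acta2 and Col1a2 are low in wild type and knockout and high in all 4 knock-in lines, Xlr5b is highest in Q111, and Orai3 is lowest in Q111, at 1.874 and 0.8069 CPM.

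Orai3 (chromosome 7, 127769815 to 127775150) had one of the 2 largest falls among called genes of at least 5 CPM in wild type whose groups did not overlap. Its order against Psme2b, which is listed at 0 in Q111, turns with the pseudocount: -3.38 for Orai3 and -3.14 for Psme2b as reported, and -3.72 and -4.05 with a pseudocount of 0.5. ORAI3 is a pore subunit of store-operated and related calcium channels. Orai3 was at 33.59 and 15.21 CPM in wild type and at 1.874 and 0.8069 CPM in Q111. Both Q111 libraries were far below both wild-type libraries (log2 change -3.38, SE 0.39, adjusted p = 0.00672, limma). Of the 8 tested genes of store-operated calcium entry, a list added after this value was seen, Saraf, an inhibitor of this entry that lies on chromosome 8, rose (log2 change 0.65, adjusted p = 0.0271, limma). The other 6, among them Orai1, Orai2 and the calcium sensors Stim1 and Stim2, were not called. With Orai3 and Saraf, 25% of the list was called, against 7.42% of all genes.

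Psme2b (chromosome 11, 48945354 to 48946190) was at 10.89 and 5.559 CPM in wild type and was listed at 0 in both Q111 libraries (adjusted p = 0.0413, limma). It has 1 exon, and 60.2% of its 75-base words also occur in Psme2, so its counts depend on how shared reads were assigned. Psme2, the proteasome activator subunit itself, was at 51.19 and 27.46 CPM in wild type and at 97.37 and 65.92 CPM in Q111, and rose (log2 change 1.07, adjusted p = 0.0234, limma).

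Part of the naive pluripotency circuit was lower in Q111. Of 18 naive genes tested, Tbx3, Tfcp2l1 and Klf5 fell, Dppa3 rose and 14 were not called (22.2% called, median 0.04). Over all genes 7.42% were called. Tbx3 (chromosome 5, 119670669 to 119684724), a T-box factor that sustains self-renewal, was at 34.73 and 95.35 CPM in wild type and at 3.322 and 22.52 CPM in Q111. Each Q111 library was below both wild-type libraries, and replicate 2 was the higher in both genotypes (log2 change -2.54, SE 0.31, adjusted p = 0.00883, limma). Tfcp2l1 (chromosome 1, 118627945 to 118685168), a LIF-responsive factor of the naive circuit, was at 118.6 and 246.6 CPM in wild type and at 34.4 and 73.08 CPM in Q111, with no overlap (log2 change -1.75, SE 0.16, adjusted p = 0.00308, limma).

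Klf5, a Krüppel-like factor of the same circuit, was at 35.17 and 129.2 CPM in wild type and at 15.85 and 46.69 CPM in Q111. The groups overlapped, and the call rests on the difference within each replicate pair (log2 change -1.28, SE 0.27, adjusted p = 0.0329, limma). Esrrb, an orphan receptor of the circuit, was at 142 and 212.6 CPM in wild type and at 110.8 and 72.34 CPM in Q111 and was not called (log2 change -0.95, adjusted p = 0.0982, limma). Of the 14 general pluripotency genes tested, Dppa5a and Dppa2 fell and 12 were not called (14.3% called against 7.42% of all genes, median -0.57). Dppa5a, an RNA-binding protein of pluripotent cells, was at 1343 and 879.8 CPM in wild type and at 637.6 and 484.6 CPM in Q111 (log2 change -0.97, SE 0.11, adjusted p = 0.00649, limma). Its groups were separate. Pou5f1 narrowly missed the threshold (log2 change -0.77, adjusted p = 0.0536, limma).

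LIF signalling genes other than Tfcp2l1 did not move as a block. Of 16 LIF and STAT3 targets tested, on a list added after the values were seen, Osmr rose by 0.76, Tfcp2l1 and Icam1 fell, and 13 were not called (median -0.01). That is 18.8% called, against 7.42% of all genes.

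Mras, Rapgef3 and Cdkn1b were among the 10 largest falls. Mras (chromosome 9, 99385420 to 99437381), a RAS-related GTPase, was at 25.55 and 125 CPM in wild type and at 3.414 and 22.39 CPM in Q111. Both Q111 libraries were below both wild-type libraries, and the wild-type pair differed severalfold (log2 change -2.51, SE 0.19, adjusted p = 0.00148, limma). Rapgef3, which encodes the cyclic AMP sensor EPAC1, was at 7.136 and 29.48 CPM in wild type and at 1.585 and 3.036 CPM in Q111 (log2 change -2.29, SE 0.36, adjusted p = 0.0145, limma). It overlaps 2 antisense genes. Cdkn1b (chromosome 6, 134920401 to 134925513), the cyclin-dependent kinase inhibitor p27, was at 143.5 and 43.5 CPM in wild type and at 17.8 and 7.954 CPM in Q111. The order of the replicates was the reverse of that in Mras, and the groups did not overlap (log2 change -2.63, SE 0.33, adjusted p = 0.0093, limma).

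Inhbb and Bmp4, which encode secreted signals of the transforming growth factor family, also fell. Inhbb (chromosome 1, 119415465 to 119422248), the beta-B subunit of activin and inhibin, was at 21.66 and 42.21 CPM in wild type and at 2.149 and 10.34 CPM in Q111, without overlap (log2 change -2.39, SE 0.27, adjusted p = 0.00649, limma). Bmp4, a ligand that supports self-renewal with LIF, was at 27.28 and 134.4 CPM in wild type and at 8.748 and 18.82 CPM in Q111 (log2 change -2.15, SE 0.32, adjusted p = 0.013, limma). Its Q111 libraries were both below the wild-type libraries. The lists of BMP and of TGF-beta and activin targets, added after the values were seen, gave few calls. Of 14 BMP targets tested, Smad9 rose and Bmp4 and Inhbb fell (median -0.07). Of 14 TGF-beta and activin targets, 1 rose, Tgfbi and Inhbb fell and 11 were not called. The median of this second list was 0.34, but -0.23 in replicate pair 1 and 0.38 in pair 2. Each list had 21.4% called, against 7.42% of all genes. Bmp4 and Inhbb, already seen to fall, count in the first share, and Inhbb counts again in the second. These shares are therefore no separate support.

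The remaining large falls were spread over other functions. Ankrd44, an ankyrin-repeat subunit of protein phosphatase 6, was at 19.04 and 24.34 CPM in wild type and at 3.185 and 2.971 CPM in Q111 (log2 change -2.47, SE 0.23, adjusted p = 0.00293, limma). Fbxo2, an F-box protein that recognises glycoproteins, was at 12.82 and 48.28 CPM in wild type and at 3.17 and 4.893 CPM in Q111 (log2 change -2.40, SE 0.36, adjusted p = 0.0133, limma). Mymx, which encodes a small membrane protein of myoblast fusion, was at 32.7 and 61.4 CPM in wild type and at 8.153 and 6.314 CPM in Q111 (log2 change -2.49, SE 0.54, adjusted p = 0.035, limma). In all 3 genes the groups did not overlap.

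Of 12 genes of the DNA methylation machinery tested, Dnmt3b rose, Uhrf1, Tet2 and Zfp57 fell, and 8 were not called (median -0.31). That is 33.3% called, against 7.42% of all genes. Uhrf1, the cofactor that brings the maintenance methyltransferase to replicating DNA, was at 486.9 and 806.6 CPM in wild type and at 227.2 and 303.2 CPM in Q111 (log2 change -1.25, SE 0.16, adjusted p = 0.0102, limma). The 2 groups were separate. Tet2, which oxidises methylcytosine, was at 149.6 and 305.9 CPM in wild type and at 55.5 and 169.7 CPM in Q111 (log2 change -1.13, SE 0.22, adjusted p = 0.0259, limma), and here the groups overlapped. Zfp57, which protects imprints, fell by 0.79 on the log2 scale, also with overlap. Dnmt3b, a de novo methyltransferase that is higher in primed than in naive cells, was at 295.6 and 295.1 CPM in wild type and at 466.2 and 436.1 CPM in Q111 (log2 change 0.61, SE 0.14, adjusted p = 0.038, limma). Both Q111 libraries stood above the nearly equal wild-type libraries. DNA methylation itself was not measured.

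Imprinted genes, which are expressed from 1 parental copy, had 4 rises and 1 fall among 26 tested (19.2% called, median 0.45). Over all genes 7.42% were called. Peg3, a paternally expressed zinc-finger gene, was at 26.47 and 45.92 CPM in wild type and at 136.6 and 141.4 CPM in Q111 (log2 change 1.96, SE 0.34, adjusted p = 0.0189, limma). Mest, also paternally expressed, was at 60.17 and 86.89 CPM in wild type and at 184.2 and 231.6 CPM in Q111 (log2 change 1.50, SE 0.12, adjusted p = 0.00169, limma). Both genes were clearly separate between the groups, and 32.3% of the 75-base words of Mest also occur in its overlapping neighbour Copg2. Sgce and Sfmbt2 rose by 0.73 and 0.67, and Slc22a18 fell by 0.96.

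Markers of cell types other than stem cells gave scattered calls. Of 17 primed and formative genes, Cdh2 and Dnmt3b rose and none fell (median 0.60, with 0.03 in replicate pair 1 and 0.69 in pair 2). That is 11.8% called, beside 7.42% of all genes. Cdh2, the N-cadherin of epiblast, neural and mesenchymal cells, was at 2.044 and 3.895 CPM in wild type and at 16.28 and 19.2 CPM in Q111 (log2 change 2.28, SE 0.21, adjusted p = 0.00293, limma). Of 11 neural progenitor genes, Nes, Cdh2 and Prom1 rose and 8 were not called (27.3% called). Their median was 0.72, with 0.08 in replicate pair 1 and 1.36 in pair 2. Nes, the intermediate filament nestin, was at 8.422 and 21.17 CPM in wild type and at 88.16 and 71.81 CPM in Q111, without overlap (log2 change 2.48, SE 0.43, adjusted p = 0.0194, limma). Pax6, the neural determinant, overlapped between the groups, Sox1 was listed at 0 in replicate 1 of both genotypes, and none of the 14 neuronal genes was called by limma or edgeR (3 had an unadjusted p under 0.05, and DESeq2 called 1).

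Of 17 primitive endoderm genes, Dab2, Amn and Sox7 fell and none rose (17.6% called against 7.42% of all genes, median -0.35). Dab2, an endocytic adaptor of that lineage, was at 74.08 and 24.59 CPM in wild type and at 11.31 and 11.71 CPM in Q111 (log2 change -1.81, adjusted p = 0.0267, limma). Of 11 trophectoderm genes, Krt18, an epithelial keratin, rose (log2 change 1.25, adjusted p = 0.0233, limma) and Tead4, the transcription factor that starts the lineage, fell. These 2 are 18.2% of that list. Tead4 was at 18.57 and 32.96 CPM in wild type and at 6.294 and 9.478 CPM in Q111, with both Q111 libraries lower (log2 change -1.56, adjusted p = 0.005, limma). Of 11 streak and mesoderm genes Bmp4 alone was called (9.09%, near the 7.42% of all genes). None of 12 genes of the rare cells that resemble the 2-cell embryo was called by limma or edgeR (2 had an unadjusted p under 0.05, and DESeq2 called 2). Zscan4c, their best-known marker, had a log2 change of -0.01 (adjusted p = 0.995, limma).

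Of 55 splicing regulators tested, which control exon choice, Esrp1 rose, Srsf10 and Hnrnpd fell, and 52 were not called (median -0.23). That is 5.45% called, near the 7.42% of all genes tested. Esrp1, the epithelial splicing factor, was at 32.62 and 11.21 CPM in wild type and at 55.43 and 46.99 CPM in Q111 (log2 change 1.36, adjusted p = 0.0309, limma). Srsf10 was at 133.6 and 234.2 CPM in wild type and at 84.09 and 71.35 CPM in Q111 (log2 change -1.18, adjusted p = 0.0337, limma). Neither gene had overlapping groups. Hnrnpd fell by 0.58. Splicing itself was not measured in gene-level values.

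Among metabolic and stress groups, none of 24 cholesterol synthesis genes (median 0.19) and none of 28 oxidative phosphorylation genes (median -0.15) passed the test by limma or edgeR. At an unadjusted p under 0.05 the limma counts were 4 and 8, and DESeq2 called 1 and 2. The other groups had shares of calls on both sides of the 7.42% of all genes. Of 24 glycolysis and hypoxia genes, Adm rose and Vegfa fell (8.33%). Of 20 ATF4 and endoplasmic reticulum stress genes, Slc7a11, the cystine transporter, rose (log2 change 1.38, adjusted p = 0.0216, limma), which is 5% of the list. Of 17 p53 targets, Ccng1, which lies on chromosome 11, rose and Sesn1 fell (11.8%). Of 25 replication genes, Mcm6, a subunit of the replicative helicase, fell by 0.54 (4% of the list called).

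Genes tied to huntingtin and to repeat stability had 1 call in each list, shares of 5.26% and 10% beside 7.42% of all genes. Of 19 genes for huntingtin partners, Cbs, the cystathionine beta-synthase of transsulphuration, fell and 18 were not called (median -0.08). Cbs was at 24.64 and 41.99 CPM in wild type and at 8.641 and 17.28 CPM in Q111, with no overlap (log2 change -1.32, adjusted p = 0.0174, limma). Of 10 mismatch repair genes, a pathway known to affect CAG repeat length, Msh6 rose and 9 were not called (median -0.14). Msh6 was at 928.8 and 1031 CPM in wild type and at 1294 and 1429 CPM in Q111, again without overlap (adjusted p = 0.0197, limma).

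Of 9 sex-linked genes tested, the 5 Y-linked genes Kdm5d, Eif2s3y, Uty, Ddx3y and Zfy1 rose and the X-linked partners were not called. That is 55.6% called, against 7.42% of all genes. Eif2s3y, a translation initiation factor subunit, was at 29.34 and 19.53 CPM in wild type and at 66.23 and 55.73 CPM in Q111 (log2 change 1.31, adjusted p = 0.0107, limma). Y-linked transcripts were present in all 4 libraries, with Q111 above wild type.

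**Figure D4:**
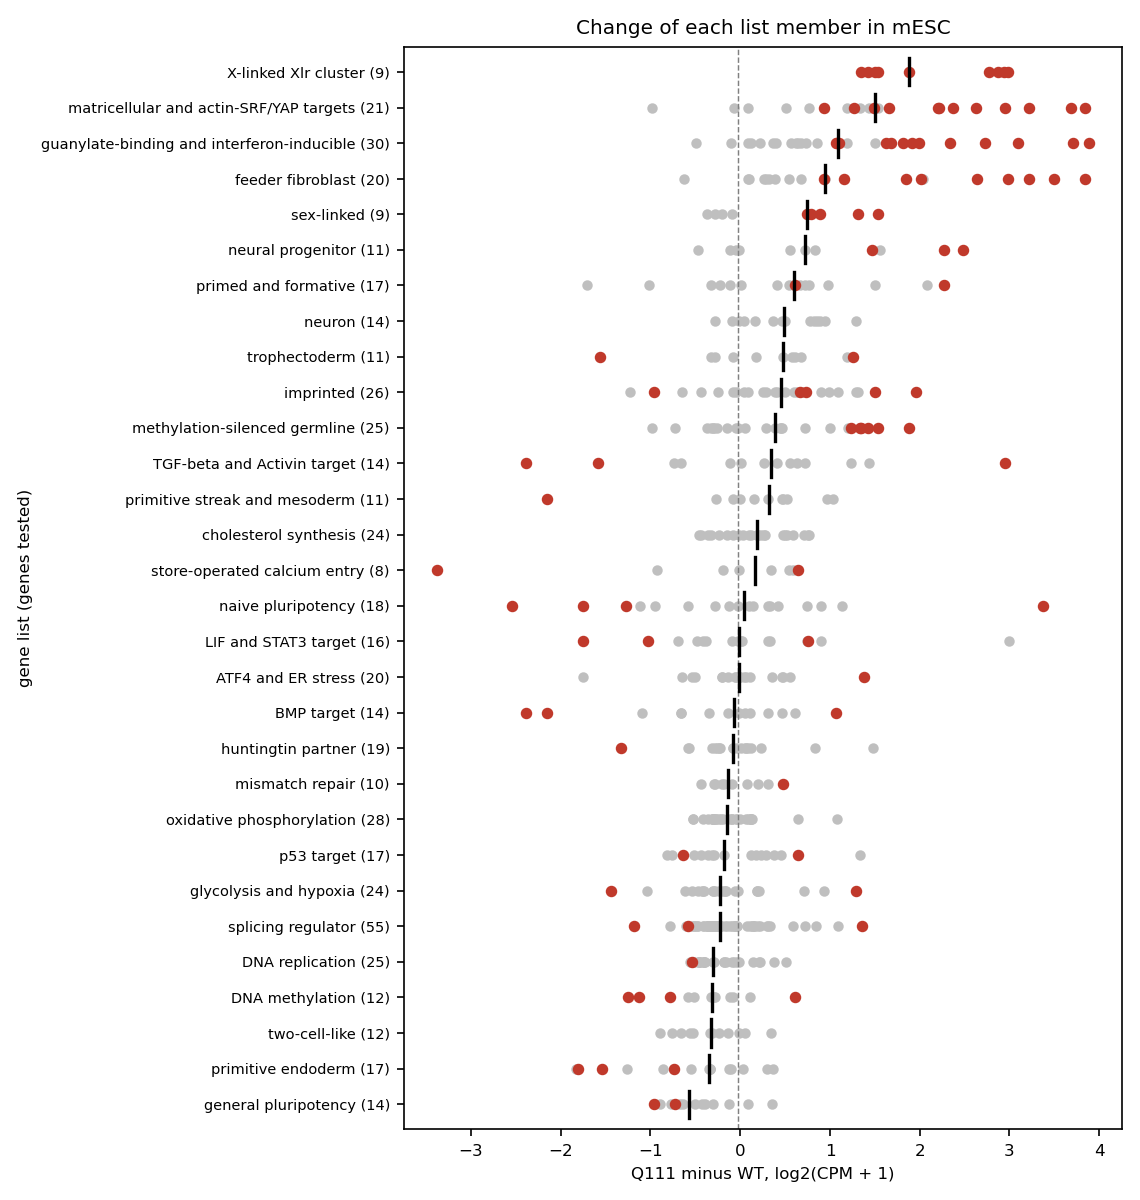
Log2 change, Q111 against wild type in mESC, of each tested member of each gene list. Red points were called at an adjusted p under 0.05, grey points were not, the black bar is the median of the list, and the dashed line is the median of all genes tested (-0.02). The list of matricellular and actin targets, with a median of 1.50, and the Xlr list, with 1.88, lie to the right.

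Q111 was also compared with the other knock-in lines. Against the mean of Q20, Q50 and Q92, Q111 differed in 98 genes (0.704%), 66 higher (0.474%) and 32 lower (0.23%). Against single lines the counts were 8 for Q20 (0.0575%), 348 for Q50 (2.5%) and 158 for Q92 (1.14%). The other lines were each compared with the same 2 wild-type libraries, with 1475 genes called for Q20 (10.6%), 126 for Q50 (0.905%), 108 for Q92 (0.776%) and 16 for the knockout (0.115%). These comparisons share their controls, so a feature of the wild-type libraries enters all of them, and medians on the same side are no separate support. The genes that rose in Q111 had a median change against wild type of 0.79 in Q20, 0.48 in Q50, 0.43 in Q92 and 0.11 in the knockout. For the genes that fell these medians were -0.81, -0.40, -0.47 and -0.16. More genes were called for Q20 than for Q111, and fewer for Q50 and Q92. Any link between these counts and the repeat length was not tested.

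The matricellular list had no called gene against the other knock-ins by limma, edgeR or DESeq2 (median -0.14, with 1 of 21 at an unadjusted p under 0.05). Thbs1 was between 102.6 and 260.1 CPM in the other knock-in libraries, around the Q111 values, and at 8.29 and 15.7 CPM in the knockout. Gbp2b was graded among lines: 158 and 43.5 CPM in Q20, 56.9 and 19.7 CPM in Q50, and 19.5 and 6.96 CPM in Q92. Its Q111 value did not differ from the mean of the other knock-ins (log2 change 0.68, adjusted p = 0.294, limma). Dppa3 was likewise highest in Q20 (48.26 and 24.06 CPM) and Q111, and lower in Q50 (14.19 and 15 CPM) and Q92 (6.53 and 4.91 CPM).

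In mESC the Xlr genes set Q111 apart, with all 9 called higher than in the other knock-ins (median 2.23). The set was collected after its values were seen. Its members share 33.9% to 85.3% of their 75-base words with other genes, so the 9 calls are not separate observations. Xlr5a, Xlr5b and Xlr5c summed to 163 and 108 CPM in Q111, 36.7 and 24.6 CPM in Q20, 8.12 and 7.28 CPM in Q50, 9.38 and 7.03 CPM in Q92, and 9.62 and 6.51 CPM in the knockout. Both Q111 libraries were above all 10 others. Xlr5b differed from the other knock-ins by 3.00 on the log2 scale (adjusted p = 0.000711, limma). Nxf3 was at 19.79 and 14.87 CPM in Q20 and between 5.82 and 6.98 CPM in Q50 and Q92, below both Q111 libraries (log2 change 1.94, adjusted p = 0.00376, limma). Rhox5 was also higher in Q111 than the mean of the other knock-ins (log2 change 1.36, adjusted p = 0.00508, limma). It did not set Q111 apart from Q20, at 96.1 and 102.7 CPM, which overlapped Q111 at 115 and 95.14 CPM. The Q50 libraries were at 33.45 and 30.94 CPM and the Q92 libraries at 20.22 and 19.8 CPM.

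On the lower side Orai3 set Q111 apart as well. It was at 29.09 and 11.17 CPM in Q20, 35.91 and 18.42 CPM in Q50, 32.13 and 18.34 CPM in Q92, and 40.41 and 6.71 CPM in the knockout. The Q111 libraries were the 2 lowest of 12 (log2 change -3.37 against the other knock-ins, adjusted p = 0.00658, limma). Mras (log2 change -1.50, adjusted p = 0.00778, limma) was also below the mean of the other knock-ins. So were Tbx3 (log2 change -1.70, adjusted p = 0.0367, limma) and Tfcp2l1 (-1.41, adjusted p = 0.00658, limma). In Q20, Mras was at 4.952 and 27.39 CPM, Tbx3 at 9.918 and 27.15 CPM, and Tfcp2l1 at 61.23 and 136.3 CPM. Each of these genes was lower in Q111 than in Q20 within both replicate pairs. The Q111 and Q20 libraries overlapped, however, and none of these genes was called between Q111 and Q20. Rnf219, a ring-finger protein, was at 13.84 and 24.31 CPM in wild type and at 7.864 and 9.644 CPM in Q111, without overlap, and was also lower than in the other knock-ins (log2 change -1.54, adjusted p = 0.0162, limma). The 8 genes called between Q111 and Q20, given because they are few, were Siah1a, Xlr5a, Xlr5b, Tssc4, Xlr4c, Gm15085 and Gm15093, which were higher in Q111, and Pramel7, which was lower.

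Neural progenitors of the same genotypes gave a second, separately normalised view. In NPC, 2197 of the genes tested differed between Q111 and wild type (16.6%), 1154 higher (8.74%) and 1043 lower (7.9%). A gene's change differed between mESC and NPC in 1080 of 12321 genes tested in both (8.77%). Of the genes that rose in mESC and were tested in both, 167 of 477 also rose in NPC (35% of the mESC rises and 16.1% of the NPC rises), and 29 fell there. Of those that fell in mESC, 64 of 362 also fell in NPC (17.7% and 6.91%), and 17 rose. The sign was shared by 586 of the 839 called genes tested in both, against 56.1% of all 12321.

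The difference between Q111 and wild type on chromosomes 8 and 11 had nearly the same size in NPC. There the relative level of chromosome 8 was -0.312 and -0.275 in wild type and 0.193 and 0.182 in Q111. For chromosome 11 it was -0.176 and -0.092 in wild type and 0.374 and 0.356 in Q111. The other lines did not all keep their mESC places: on chromosome 8 the Q92 NPC libraries were at -0.241 and -0.257, beside wild type, while knockout, Q20 and Q50 lay between 0.068 and 0.159. On chromosome 11 Q20 was at 0.176 and 0.172, below Q111, and knockout, Q50 and Q92 lay between -0.167 and -0.103. The Q111 to wild-type ratios, 1.40 and 1.41, were close to the 1.38 and 1.43 of mESC. Chromosome 1 also differed in NPC, at 0.224 and 0.145 in wild type and at -0.262 and -0.261 in Q111. Its ratio was 0.734 in NPC and 0.888 in mESC. Of the chromosome 8 genes that rose in mESC, 91 of 104 tested in NPC were higher there by sign and 52 were called, and on chromosome 11 these counts were 111 and 64 of 128. Away from chromosomes 8 and 11, with chromosome 1 included, 51 of 245 mESC rises were called higher in NPC.

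The Xlr genes tested in NPC went the other way. Of the 9, 5 were tested there and all 5 were called lower in Q111. A gene near 0 in Q111 NPC entered the test only through higher libraries of other genotypes. The filter thus favours lower calls, and shared sequence means the 5 are not separate observations. Of the 75-base words, 33.9% of Xlr3a, 43.4% of Xlr3b and 55.5% of Xlr4a occur in other genes. Xlr3b was at 8.478 and 5.363 CPM in wild-type NPC and at 0.1218 and 0.1701 CPM in Q111 NPC (log2 change -2.76, adjusted p = 0.00185, limma). Xlr3a had a log2 change of -2.74 and Xlr4a of -1.48, with Xlr4a listed at 0 in both Q111 libraries. Xlr5a, Xlr5b and Xlr5c were under 0.3 CPM in all 4 of these NPC libraries and were not tested.

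Anxa1, Fndc3c1 and Kdm5d led the shared rises. Anxa1, an actin- and membrane-binding annexin, was at 3.642 and 11.26 CPM in wild-type mESC and 28.04 and 40.64 CPM in Q111 mESC, and went from 0.368 and 1.387 to 26.78 and 27.6 CPM in NPC (log2 change 3.96 in NPC, adjusted p = 0.0003, limma). Fndc3c1, an X-linked fibronectin-domain gene, went from 3.642 and 0.673 to 20.47 and 6.673 CPM in mESC (log2 change 2.20) and from 2.12 and 4.63 to 68.1 and 64.5 CPM in NPC (log2 change 4.01, adjusted p = 0.000219, limma). Kdm5d, the Y-linked histone demethylase, went from 0.577 and 0.266 to 3.84 and 2.46 CPM in mESC and from 0.963 and 0.626 to 43.56 and 46.78 CPM in NPC (adjusted p = 1.79e-06, limma). In each case both Q111 libraries were above both wild-type libraries of that cell type.

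Kank4, Fbxo44 and Celsr1 led the shared falls. Kank4, a scaffold protein of the cell cortex, was at 24.67 and 31.07 CPM in wild-type mESC and at 5.563 and 5.712 CPM in Q111 mESC (log2 change -2.11, adjusted p = 0.00289, limma), with a log2 change of -2.41 in NPC. Celsr1, a cadherin of planar cell polarity, was at 25.76 and 27.56 CPM in wild-type mESC and at 13.38 and 10.82 CPM in Q111 mESC. In NPC it was at 66.07 and 11.07 CPM in wild type and at 1.71 and 1.74 CPM in Q111, so its wild-type pair differed severalfold there (log2 change -3.38, adjusted p = 0.0252, limma). Orai3 was not called in NPC, where it was at 35.09 and 7.23 CPM in wild type and at 25.03 and 1.70 CPM in Q111 (log2 change -1.04, adjusted p = 0.507, limma). Spcs3 was at 105.4 and 138.9 CPM in wild-type NPC and at 25.32 and 338.2 CPM in Q111 NPC, values that overlap and do not repeat the separation seen in mESC. Htt was not called in NPC (log2 change -0.12, adjusted p = 0.566, limma).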

How the data were processed

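Total RNA of mESC and NPC was sequenced as paired 75-base reads on a NextSeq 500, per the labels' protocols. Base calling with CASAVA 1.8, alignment with STAR and the genome GRCm38.p6 are named in the submitters' processing notes. The counter, its strand setting, the annotation and any gene filter are not given in the sources used here. The deposited signal is a normalised CPM table per cell type, made by the authors. Within 0.05 of a read, all its values were whole multiples of 1 step per library, so read counts could be recovered for edgeR and DESeq2. The main test kept genes of at least 1 CPM in at least 2 of the 12 mESC libraries and fitted log2(CPM + 1) with limma 3.58.1 (R 4.3.3) as 6 group means plus the replicate number, moderated with a trend in mean level. A call is a two-sided Benjamini-Hochberg adjusted p under 0.05. NPC were fitted without the block, and the difference between cell types over all 24 libraries with it. edgeR 4.0.16 and DESeq2 1.42.0, other pseudocounts, filters and scalings, and leaving out each library were alternatives. Same-numbered mESC libraries correlated in 15 of 15 genotype pairs (0.25 to 0.547, deviations from group means), so the numbers were taken to pair the samples. In NPC 3 of 15 pairs were over 0.1. Gene positions are from GENCODE on GRCm38, whose names matched 99.63% of the mESC genes. Named by rule were Htt, the 10 largest rises and falls among called genes of at least 5 CPM without overlapping groups, up to 4 called members of each list, up to 2 abundant members of lists with no call, and the leading genes against other knock-ins and shared with NPC. Genes outside that rule, such as other list members, were chosen after their values were seen. The members and lists were chosen with earlier results of these data known. Some genes counted in the lists are not reported here by name.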

Additional observations from a re-analysis of the deposited data

Results flagged for a closer look

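For 28 of the genes named by rule, the Q111 against wild-type change differed between mESC and NPC by an interaction test (limma over 24 libraries with the replicate number as a block within cell type, adjusted p under 0.05). Of all 12321 genes tested in both cell types, 8.77% differed in this way. Most of the named genes were picked for a call or a large change in mESC. That choice favours a difference, so the 28 are no separate result. The values are the mESC change minus the NPC change on the log2(CPM + 1) scale, and the 2 tables were normalised separately. Among contractile and matrix genes the difference was 5.36 for Acta2, 3.85 for Tagln, 3.70 for Thbs1 and 3.61 for Col1a2. In NPC, Acta2 was at 0.6481 and 15.99 CPM in wild type and at 0.6227 and 1.12 CPM in Q111. The size of its difference thus leans on wild-type NPC replicate 2. Among guanylate-binding genes it was 3.56 for Gbp2b and 3.30 for Gbp2. Among X-linked genes it was 4.64 for Xlr3b, 4.08 for Xlr3a, 2.90 for Xlr4a and 2.22 for Nxf3. The 3 Xlr genes rose in mESC and fell in NPC, while Nxf3 rose in both. It was 2.46 for the imprinted Peg3, 2.41 for Cdh2, 2.31 for Nes and 1.09 for Dnmt3b.

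The difference was below 0, a lower change in mESC than in NPC, for the other genes. These were Kdm5d (-3.16), Psme2b (-3.10), Uhrf1 (-2.81), Srsf10 (-2.66), Stmn2 (-2.61), Bmp4 (-2.48), Tbx3 (-2.43), Cdkn1b (-2.05), Fbxo2 (-1.98), Fndc3c1 (-1.80), Rapgef3 (-1.66), Ankrd44 (-1.61), Tead4 (-1.33) and Hnrnpd (-0.92). Kdm5d and Fndc3c1 were higher in Q111 in both cell types, and more so in NPC. Uhrf1 in NPC was at 64.43 and 460.6 CPM in wild type and at 512 and 506.9 CPM in Q111. The size of its difference thus leans on wild-type NPC replicate 1.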

How the results depend on the processing

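With 2 libraries a group, these counts depended on the model. For Q111 against wild type in mESC (1032 called) the compared libraries alone gave 0 calls, the fit without the replicate block 44, edgeR without it 17, DESeq2 2424 and chromosome-median centring 675. Leaving out 1 library gave 83 to 234 calls, with the lone library assumed to vary like the others. Against the other knock-ins (98) the counts were 14 without the block, 14 with edgeR without it, 54 at a mean of at least 5 CPM, 60 with the compared libraries alone, 741 with DESeq2, and 9 to 80 when 1 library was left out. For NPC (2197) leaving out 1 library gave 554 to 5085, and for the difference between cell types (1080) 353 to 2916, with 238 without the block and 543 at a mean of at least 5 CPM. Of 71 called named genes, none changed direction in any setting run, 13 stayed called without the block, 62 with edgeR, and 24 to 38 when 1 library was left out. Zscan4c (-0.01) changed sign or became 0 with a pseudocount of 2 (0), edgeR (0.04, and 0.34 without the block), DESeq2 (0.03), chromosome centring (0.11), and when 1 library was left out (-0.68 to 0.67; 0.48 without wild-type replicate 1). The list median became -1.11 for streak and mesoderm genes (from 0.32) and -0.02 for store-operated calcium entry (from 0.16) at a mean of at least 5 CPM, and the latter ranged from -0.08 (without wild-type replicate 1) to 0.24 when 1 library was left out. The fits by edgeR without the block, without the knockout libraries and with centring were chosen after seeing the data. The cause of these shifts was not tested.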
